A study of Mus musculus with 12 samples.

Results

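The accessible sites around Tal1 and Lmo2, which encode partner proteins of the erythroid transcription factor GATA1, were examined in DNase-seq peak lists of murine erythroid cells. The sites were taken by position on build mm9: every peak that overlapped chromosome 4 from 114690000 to 114800000, a window of 110.0 kb around Tal1, or chromosome 2 from 103700000 to 103840000, a window of 140.0 kb around Lmo2. Peaks of the 12 replicate lists that shared at least 1 bp were merged into 62 sites, of 265371 such regions on the autosomes and X, with 23 at Tal1 and 39 at Lmo2. Distances are from a gene start that was rounded to 1 kb, and each site is named by the distance of its median summit, the position of highest signal within a peak.

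DNase-seq maps the places where DNase I cuts chromatin most readily. G1E is a line from strain 129 embryonic stem cells in which Gata1 was disrupted, and its markers are Ter119-CD71- and Ter119-CD71+. G1E-ER4 is a subline of G1E with inducible GATA-1, had 100 nM estradiol for 22 h in every library here, and carries Ter119+CD71+ markers, so the GATA1-null background is shared by both lines and restored GATA1, estradiol and subline cannot be told apart. Mitotic cells of either line had 200 ng/ml nocodazole for 7 h and were sorted for histone H3 phosphorylated at serine 10. Marker expression was not checked, since peak lists hold none. The 4 groups, asynchronous and mitotic G1E and asynchronous and mitotic G1E-ER4, had 3 libraries each. The labels do not say that these came from separate cultures, so p-values measure the spread between these libraries, which may be technical.

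TAL1 is a basic helix-loop-helix protein that binds DNA together with an E protein, and LMO2 is a LIM-only protein that does not bind DNA itself and bridges TAL1 to GATA factors and LDB1. The complex occupies regulatory elements of red cell genes, and both genes are required for blood formation. Tal1 is known to be controlled by promoters at its start and by enhancers downstream of the gene, among them a stem cell enhancer and an erythroid enhancer that lies beyond the neighbouring gene Pdzk1ip1. Lmo2 is known to have a distal and a proximal promoter and several upstream elements spread towards Caprin1. No positions of these elements were used, so no site below is assigned to one.

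The peaks at the Tal1 start have a sequence to set beside them, because the RefSeq promoter table (GRCm38.p6) holds 2 starts of Tal1. The 250 bases before each are printed 5′ to 3′ on the plus strand, with matches to GATA on either strand (written GATA or TATC) in capitals, since GATA1 is known to bind these letters. The first lies at chr4:115056176-115056425 and the second at chr4:115057561-115057810, both on GRCm38.p6, and neither was placed on mm9.
Tal1 start 1: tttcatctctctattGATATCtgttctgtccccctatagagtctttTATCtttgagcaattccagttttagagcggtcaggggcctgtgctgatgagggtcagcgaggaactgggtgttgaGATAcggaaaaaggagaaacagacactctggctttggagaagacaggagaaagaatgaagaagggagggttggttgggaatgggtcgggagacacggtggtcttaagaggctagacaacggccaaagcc
Tal1 start 2: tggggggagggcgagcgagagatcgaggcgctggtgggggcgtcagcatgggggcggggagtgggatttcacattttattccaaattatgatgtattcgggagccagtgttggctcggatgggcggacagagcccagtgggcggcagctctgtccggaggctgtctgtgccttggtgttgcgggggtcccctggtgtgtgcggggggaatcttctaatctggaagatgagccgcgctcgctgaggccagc
The first sequence held 4 matches, of which 2 overlap within 1 stretch of 6 letters, and the second held 0. Of 32851 promoters of the table, cut to the same length, 53.62% held at least 1 such match and 3.52% at least 4. Neither sequence held CANNTG, the E-box to which TAL1 binds with its partners, a motif that reads the same on both strands and shares no letters with a GATA match here, and 66.22% of the promoters held it. A match is a description of letters, not a bound site. Lmo2 is named only.

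Each list held exactly 100000 peaks in falling order of the authors' signal, so values are given as ranks, where 1 is the strongest peak of a list, and a site's rank is that of its highest peak. Lists covered 45.1 to 181 Mb, with a median peak width of 356 to 1192 bp, and read depth is unknown from such files. Chromosome 4 held 13.7% of the peaks of asynchronous G1E replicate 1 and 15.9% of those of mitotic G1E replicate 1, against 4.67% to 7.46% in the other 10 lists, so Tal1 results are also given without these libraries. Chromosome 2 held 9.58% to 11.2% of the peaks of G1E-ER4 lists and 6.15% to 7.97% of those of G1E lists. The signal at rank 10000 was 3.19 to 6.3 times that at rank 100000 in asynchronous lists and 1.86 to 2.67 times in mitotic lists, and the part of this flatter curve in the mitotic ranks was not tested.

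Site by site, both loci had a core of merged sites that was found in every list and a fringe that was not. Of the 23 Tal1 sites, 5 were present in all 12 lists, 4 in 10 or 11, 3 in 3 to 9, 4 in 2 and 7 in 1. The 39 Lmo2 sites split into 4 in all 12 lists, 5 in 10 or 11, 15 in 3 to 9, 5 in 2 and 10 in 1. Presence in all 12 lists thus held for 9 of 62 sites (14.5%), where 6.15% of all regions had it, and presence in 1 list for 17 (27.4%), where the share of all regions was 46.3%. Of these 17 single-list sites, 9 came from asynchronous G1E replicate 1, 5 at Tal1 and 4 at Lmo2. The share of this list among all single-list regions is not given here, so the count is a description only. The core depends on the merging of whole peaks. With windows of 150 bp on each side of the summit, 3 of 61 Tal1 windows and 0 of 82 Lmo2 windows were in all 12 lists. The share of all such windows is not given here. The authors' pooled lists, 1 for each group, added 1 peak outside the 62 sites, at Tal1 in pooled asynchronous G1E.

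**Figure D1:**
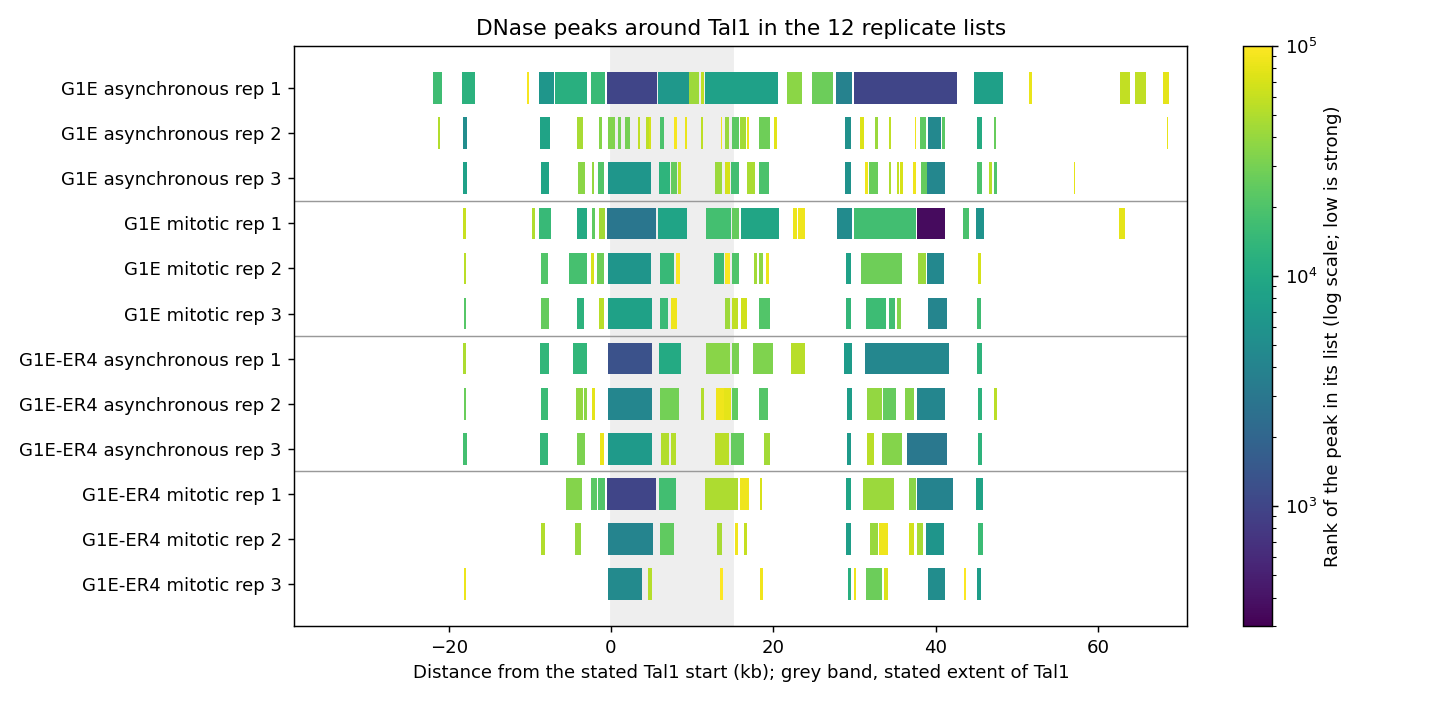
Peaks of the 12 replicate lists around Tal1 by distance from the stated gene start in kb, with the grey band marking the stated gene and the colour the rank of each peak within its list on a log scale. Dark bars at the start and near 39.5 kb stand in every list except asynchronous G1E replicate 2 at the start, whose best rank there was 29809.

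The stated extent of Tal1 spans 15.0 kb, and RefSeq gene order places Cmpk1, Stil and the noncoding Gm52674 before it and Gm33786, Pdzk1ip1 and Cyp4x1 after it. Of the 10 Tal1 sites described one by one, those in all 12 lists or in all 3 lists of a group, 4 lay upstream of the start, 2 in the gene and 4 had their median summit downstream. At the start itself, the site 0.3 kb downstream of it spanned 114728470 to 114734668 and was found in all 12 lists. Its ranks were 983, 29809 and 6379 in asynchronous G1E and 2942, 6223 and 8255 in mitotic G1E. In G1E-ER4 they were 1283, 4315 and 6965 in asynchronous and 992, 4085 and 4719 in mitotic cells. Groups overlapped fully here, and 11 lists held the site within their 10000 strongest peaks. Asynchronous G1E replicate 2 stood apart: its start was split into 6 peaks, the highest only 619 bp wide with a summit at 2.1 kb, where the other lists had 1 or 2 peaks and a highest peak of 4231 to 6199 bp. No comparison passed at this site. The mitotic minus asynchronous difference in log2 rank, on which 1 unit is a factor of 2 in rank and a positive value is further down the list, was -0.10 ± 1.02 (SE) in G1E and -0.34 ± 1.02 in G1E-ER4, with limma adjusted p = 1 and 0.961.

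The site 39.5 kb downstream of the start, within a merged stretch from 114758891 to 114771571, was the Tal1 site with the best median rank. G1E lists ranked it at 977, 4529 and 4436 in asynchronous and 359, 4488 and 4219 in mitotic cells. G1E-ER4 lists gave 4374, 4274 and 3098 in asynchronous and 4017, 6140 and 5014 in mitotic cells. All 12 lists thus held it within rank 6140, and the best 2 ranks came from the replicate 1 libraries of G1E, whose lists are rich in chromosome 4. Summits lay between 39.4 and 39.7 kb in every list. Mitosis moved it by -0.51 ± 0.84 (SE) on the log2 rank scale in G1E and by 0.36 ± 0.84 in G1E-ER4, and neither passed (limma adjusted p = 0.744 and 0.919).

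The other Tal1 sites of all 12 lists lay downstream. The site 29.4 kb downstream of the Tal1 start, from 114756758 to 114758691, had summits within 37 bp of each other in all 12 lists. It ranked at 3950, 5546 and 5792 in asynchronous and 4805, 8200 and 14028 in mitotic G1E, and at 7132, 7361 and 6877 in asynchronous and 8869, 7676 and 11628 in mitotic G1E-ER4. The site 45.4 kb downstream had summits within 43 bp, and its ranks were 5915 to 19486 in 11 lists and 69149 in mitotic G1E replicate 2. The site 15.5 kb downstream, a merged stretch of 9166 bp across the stated gene end, had ranks of 8061 to 23154 in asynchronous G1E, 9178 to 20790 in mitotic G1E, 21266 to 31232 in asynchronous G1E-ER4 and 46856 to 87794 in mitotic G1E-ER4. At this last site every mitotic G1E-ER4 list stood below all other lists, and the line difference in mitosis of 2.00 ± 0.47 in log2 rank (SE) did not pass (limma adjusted p = 0.0629), but did with the replicate block (adjusted p = 0.0456). No other comparison passed at these sites.

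The Tal1 sites that passed by stage lay upstream of the gene. The site 18 kb upstream, from 114710627 to 114712244, ranked at 12155, 5056 and 8197 in asynchronous G1E and at 60966, 55401 and 21768 in mitotic G1E. In G1E-ER4 the asynchronous lists gave 48915, 26810 and 17618, and of the mitotic lists only replicate 3 held it, at 84662. Within each line no mitotic list ranked it above an asynchronous one. It fell in mitotic G1E, by a log2 rank difference of 2.40 ± 0.51 (SE, limma adjusted p = 0.00609), a call that held in all 19 alternatives and was 2.43 without both replicate 1 libraries of G1E (adjusted p = 0.0237). The G1E-ER4 difference of 1.73 ± 0.51 did not pass (adjusted p = 0.0698), but did with the replicate block (limma adjusted p = 0.0372). In asynchronous cells the site lay further down in G1E-ER4 than in G1E by 1.84 ± 0.51 (adjusted p = 0.0293), and this call ended with windows of 150 bp on each side of the summit in place of whole peaks (adjusted p = 0.0757), and without asynchronous replicate 2 or 3 of G1E or asynchronous replicate 1 or 2 of G1E-ER4 (adjusted p up to 0.169).

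The site 8.4 kb upstream, from 114720079 to 114722023, had tight asynchronous ranks of 6299, 8784 and 8860 in G1E and 13728, 15723 and 13962 in G1E-ER4. Mitotic G1E lists placed it at 15035, 20615 and 25232, and mitotic G1E-ER4 lists held it only in replicate 2, at 51345. The groups did not overlap by stage within either line. In G1E-ER4 it fell in mitosis by a log2 rank difference of 2.47 ± 0.39 (SE, limma adjusted p = 0.00782), which held in 18 of 19 alternatives and ended with summit windows (2.47, adjusted p = 0.213). In G1E it fell by 1.33 ± 0.39 (adjusted p = 0.0313), a call that ended without any 1 of the asynchronous G1E libraries, without mitotic G1E replicate 2 or 3, with ranks taken within each chromosome, and without both replicate 1 libraries (adjusted p = 0.0690 for the last and up to 0.110), and with summit windows (0.42, adjusted p = 0.875). In mitotic cells it lay further down in G1E-ER4 than in G1E by 2.01 ± 0.39 (adjusted p = 0.0252), which ended without mitotic replicate 2 or 3 of G1E or mitotic replicate 1 or 3 of G1E-ER4 (adjusted p up to 0.0786), and with summit windows (0.59, adjusted p = 0.901). Summits also lay apart: all 4 G1E-ER4 lists with the site and both replicate 1 lists of G1E had theirs at -8.5 or -8.4 kb, and the other 4 G1E lists at -8.0 or -7.9 kb.

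Between this site and the start lay sites 3.7 and 1.3 kb upstream. The former was found in 11 lists at ranks 10132 to 46371 and was absent only from mitotic G1E-ER4 replicate 3. It passed in no comparison of the fit without the replicate block. The latter held ranks of 15381, 34539 and 21293 in asynchronous G1E and 24266, 27875 and 53620 in mitotic G1E. Asynchronous G1E-ER4 lacked it in replicate 1 and gave 78258 and 84954, and mitotic G1E-ER4 held it only in replicate 1, at 20717. In asynchronous cells it lay further down in G1E-ER4 by a log2 rank difference of 1.96 ± 0.58 (SE, limma adjusted p = 0.0423). That call ended in 11 of 19 alternatives, among them with summit windows (2.08, adjusted p = 0.0617), in the 50000 highest peaks (1.16, 0.0821), without any 1 of the 6 asynchronous libraries, without mitotic G1E replicate 2 and without both replicate 1 libraries of G1E (1.69, adjusted p = 0.133; up to 0.152 in all).

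Inside the gene, the site 6.4 kb downstream of the start was found in 11 lists at ranks 6682 to 51088, absent from mitotic G1E-ER4 replicate 3, and no comparison passed. In asynchronous cells the position of its summit differed between lines. All 6 G1E lists had it at 6.4 kb and all 3 asynchronous G1E-ER4 lists at 7.0 kb, with 7.3 and 6.3 kb in the 2 mitotic G1E-ER4 lists that held it. Counted by summit windows of 150 bp on each side in place of whole peaks, the 6.4 kb window was absent from all 3 asynchronous G1E-ER4 lists and ranked at 6682, 19128 and 12978 in asynchronous G1E. A neighbouring window at 7.0 kb was held by the 3 asynchronous G1E-ER4 lists alone, at 10135, 29132 and 51088. These windows were singled out for where their summits lay, so no test is given.

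**Figure D2:**
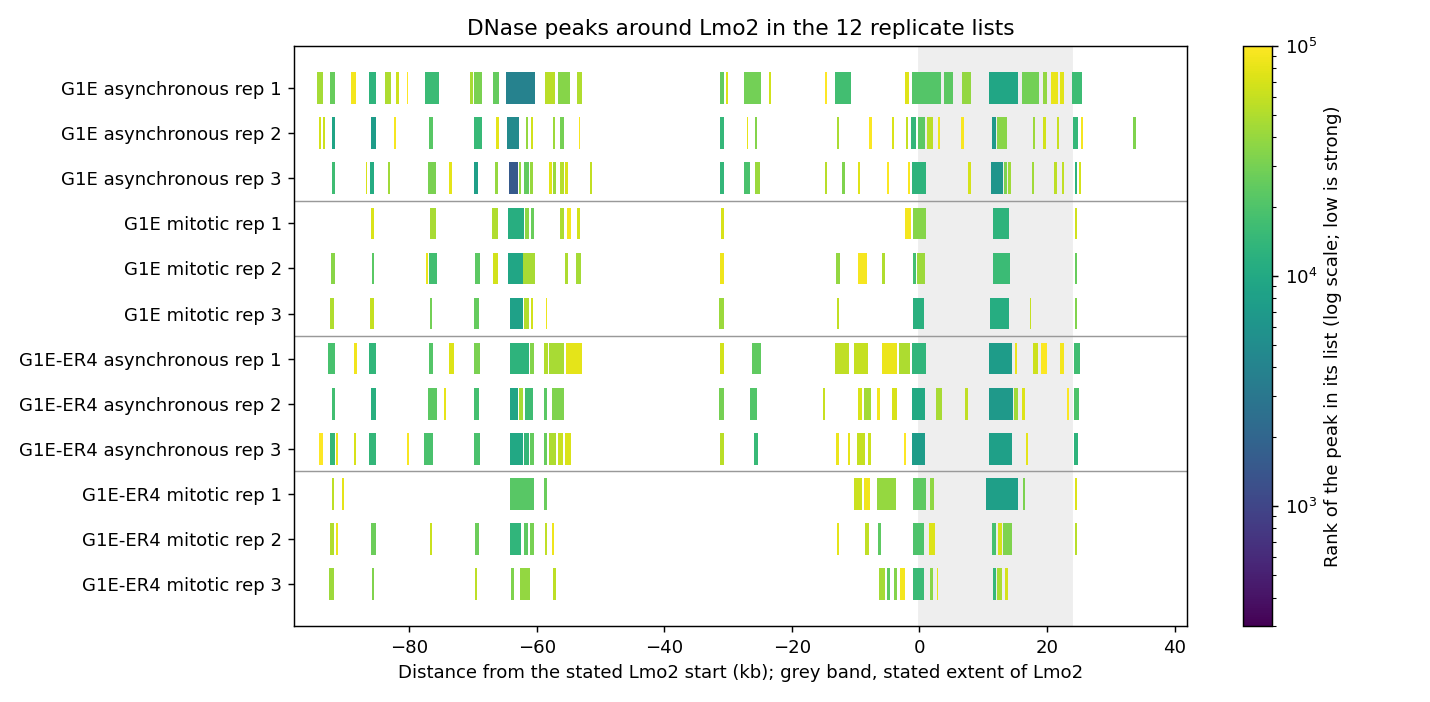
Peaks of the 12 replicate lists around Lmo2 by distance from the stated gene start in kb, drawn as for Tal1 with rank by colour on a log scale. The columns near -63.9, -0.8 and 11.7 kb run through all 12 lists, and the column near -25.6 kb stands in the 6 asynchronous lists only.

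The stated extent of Lmo2 spans 24.0 kb, and 14 of its 19 sites described one by one lay upstream, 4 in the gene and 1 beyond it. RefSeq gene order places the long noncoding genes Gm39896, Lincred1, Gm39895 and Gm34948 before Lmo2, and 4931422A03Rik and Fbxo3 after it. The site at the start, with a summit 0.8 kb upstream, spanned 103796750 to 103801535 and was in all 12 lists. Its ranks were 20955, 13903 and 12758 in asynchronous G1E and 34458, 17716 and 12075 in mitotic G1E. In G1E-ER4 they were 13444, 9940 and 7219 in asynchronous and 23670, 19615 and 15313 in mitotic cells. The G1E groups overlapped, and in G1E-ER4 every mitotic rank lay below every asynchronous one. The difference by stage did not pass in either line, at 0.33 ± 0.45 in log2 rank (SE, limma adjusted p = 0.675) in G1E and 0.96 ± 0.45 (adjusted p = 0.263) in G1E-ER4.

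Inside Lmo2 the site 11.7 kb downstream of the start, from 103808419 to 103813471, was the strongest of the locus by median rank. It ranked at 9276, 6765 and 6226 in asynchronous and 12934, 15701 and 10961 in mitotic G1E. Asynchronous G1E-ER4 gave 7272, 6798 and 7966, and mitotic G1E-ER4 7806, 18127 and 14502. Every mitotic G1E list stood below every asynchronous one, while mitotic G1E-ER4 replicate 1 stood among the asynchronous lists of its line. Neither stage difference passed, at 0.84 ± 0.40 in log2 rank (SE, limma adjusted p = 0.174) in G1E and 0.79 ± 0.40 (adjusted p = 0.304) in G1E-ER4. The same pattern of presence, all 12 lists, was shared with the start site by the sites at 63.9 and 57.2 kb upstream and at 11.7 kb downstream.

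The site 63.9 kb upstream, from 103733227 to 103737768, had the single best rank of the locus, 1526. Asynchronous G1E lists ranked it at 3946, 4751 and 1526, above all 9 other lists. Mitotic G1E gave 11464, 9384 and 8157, asynchronous G1E-ER4 12892, 9193 and 9724, and mitotic G1E-ER4 22352, 13294 and 32159. In G1E it fell in mitosis by a log2 rank difference of 1.65 ± 0.48 (SE, limma adjusted p = 0.0303), and in asynchronous cells it lay further down in G1E-ER4 than in G1E by 1.78 ± 0.48 (adjusted p = 0.0257). The stage call ended without asynchronous G1E replicate 3, mitotic G1E replicate 1 or 2, without both replicate 1 libraries, and with ranks within each chromosome (1.51, adjusted p = 0.0636; up to 0.163), and with summit windows (2.69, 0.0682). The line call ended with ranks within each chromosome (1.42, adjusted p = 0.0931), and without asynchronous G1E replicate 3 or any 1 of the asynchronous G1E-ER4 libraries (up to 0.153), and with summit windows (1.78, 0.313). The site 57.2 kb upstream, in all 12 lists at ranks 22792 to 83863, passed in no comparison, and its summits were spread over 5286 bp.

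Alone among the 21 sites of all 6 asynchronous lists, 9 at Tal1 and 12 at Lmo2, the site 25.6 kb upstream of Lmo2 was in no mitotic list, a pattern that 3.34% of the 27042 regions of all 6 asynchronous lists had. It spanned 103770519 to 103773233. Asynchronous ranks were 28892, 34409 and 18861 in G1E and 24056, 20431 and 15107 in G1E-ER4, and the authors' pooled lists also held it in the asynchronous groups only. It entered the fit through its asynchronous lists alone and so had to differ by stage. With absent lists set at rank 100000, the fitted log2 rank differences of 1.91 in G1E and 2.36 in G1E-ER4 restate that absence, and by summit windows they were 0.93 and 2.36. The highest peak had its summit at -26.9 or -27.0 kb in replicates 1 and 3 of asynchronous G1E and at -25.6 kb in replicate 2 and in all 3 asynchronous G1E-ER4 lists.

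**Figure D3:**
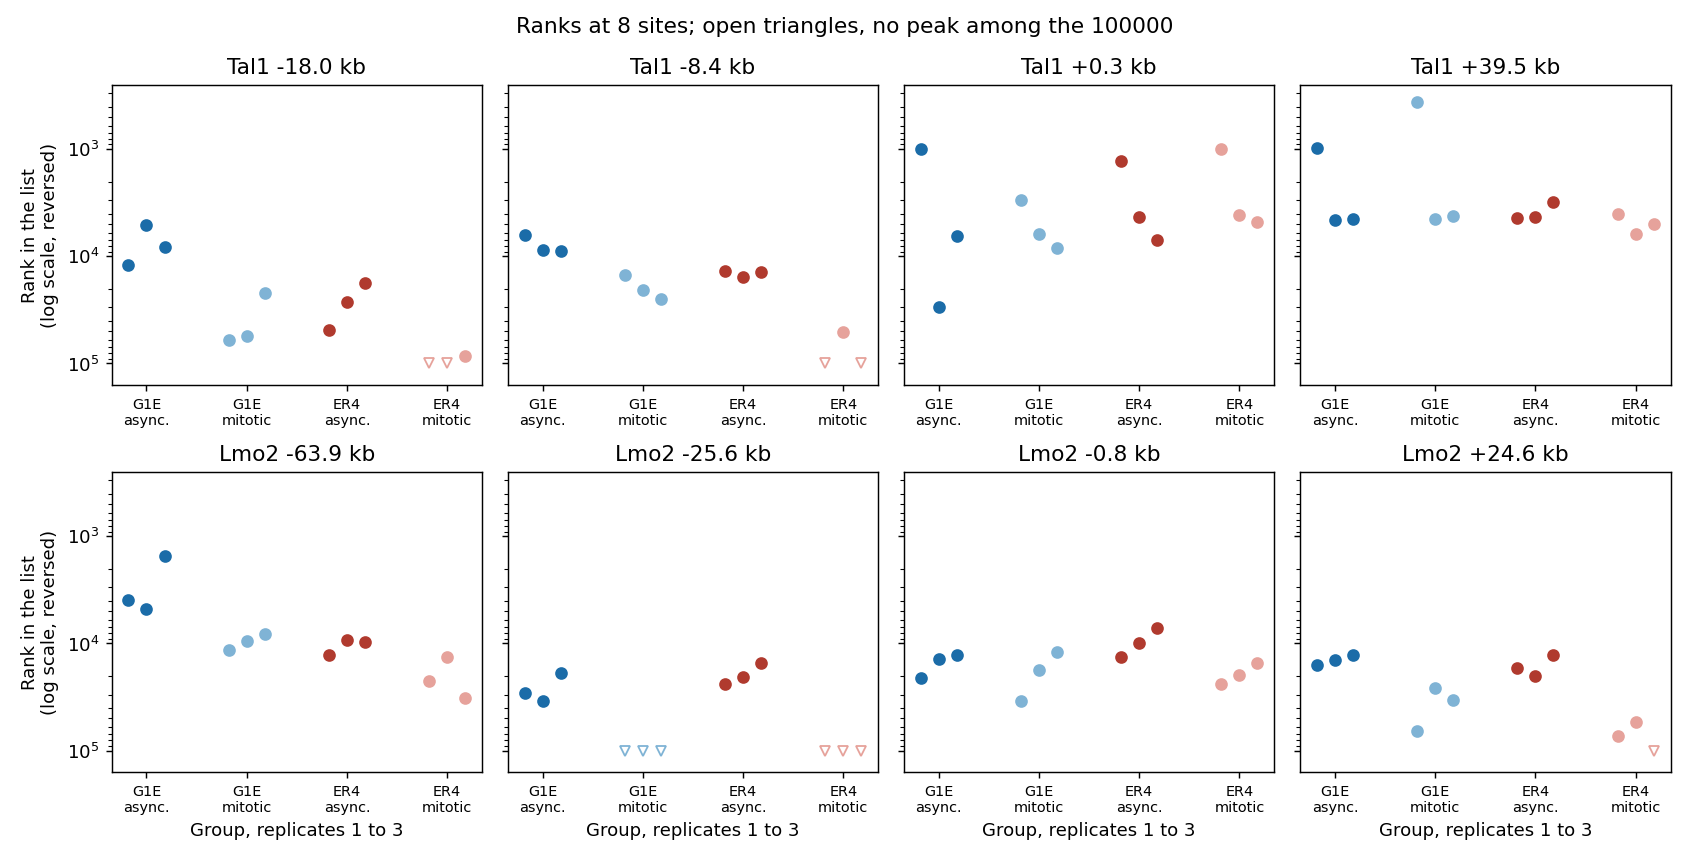
Rank within each list at 4 Tal1 and 4 Lmo2 sites, on a reversed log scale so that strong sites are high, for replicates 1 to 3 of each group, with open triangles at 100000 where a list held no peak. The Tal1 sites at 0.3 and 39.5 kb overlap across groups, and the Lmo2 site at -25.6 kb has triangles in all 6 mitotic lists.

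A string of further upstream Lmo2 sites lay lower in the mitotic lists. The site 85.7 kb upstream ranked at 13204, 7313 and 10642 in asynchronous and 72134, 22420 and 59801 in mitotic G1E, and fell in mitosis there by a log2 rank difference of 2.19 ± 0.54 (SE, limma adjusted p = 0.0143). In G1E-ER4 its ranks were 13609, 11584 and 14190 in asynchronous cells, and 27129 and 33220 in mitotic replicates 2 and 3 with none in replicate 1. That difference of 1.78 ± 0.54 did not pass (adjusted p = 0.0819), but did with the replicate block (limma adjusted p = 0.0301). The G1E call ended without asynchronous G1E replicate 2 (up to 0.0713) and without both replicate 1 libraries of G1E (2.05, adjusted p = 0.0593). The site 91.9 kb upstream held ranks of 26184, 8874 and 16643 in asynchronous G1E, and 35482 and 49688 in mitotic G1E replicates 2 and 3 with none in replicate 1. It fell by 1.84 ± 0.47 (adjusted p = 0.0168), which ended with summit windows (adjusted p = 0.0511) and without asynchronous G1E replicate 2 or 3 or mitotic G1E replicate 1 (up to 0.107). In G1E-ER4 it moved from 18533, 17241 and 14111 to 55457, 50584 and 42237, with no overlap. The difference of 1.57 ± 0.47 did not pass (adjusted p = 0.0765), but did with the replicate block (limma adjusted p = 0.0432).

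Nearer the gene, the site 31 kb upstream ranked at 24798, 14401 and 14179 in asynchronous G1E, at 70479, 86283 and 42094 in mitotic G1E and at 67129, 29633 and 54443 in asynchronous G1E-ER4, and was in no mitotic G1E-ER4 list. In G1E it fell in mitosis by a log2 rank difference of 1.89 ± 0.44 (SE, limma adjusted p = 0.00965), which ended without asynchronous G1E replicate 2 or 3 (up to 0.0642). In asynchronous cells it lay further down in G1E-ER4 by 1.47 ± 0.44 (adjusted p = 0.0410). That call ended in 8 of 19 alternatives, with summit windows (adjusted p = 0.100), with ranks within each chromosome, with presence in at least 6 lists required, and without asynchronous replicate 2 or 3 of G1E, asynchronous replicate 1 or 3 of G1E-ER4 or mitotic G1E-ER4 replicate 2 (up to 0.202). Its G1E-ER4 stage difference of 1.07 ± 0.44 did not pass (adjusted p = 0.196). At the site 76.6 kb upstream, mitotic G1E ranks of 46954, 17345 and 29188 overlapped the asynchronous ranks of 15717, 22348 and 30912, while mitotic G1E-ER4 held it only in replicate 2, at 63301, against 21182, 23281 and 18799 in asynchronous cells. It fell in mitotic G1E-ER4 by 2.03 ± 0.44 (adjusted p = 0.0189). This ended in the 50000 highest peaks (1.25, adjusted p = 0.0658), and without asynchronous G1E-ER4 replicate 2 or 3 or mitotic G1E-ER4 replicate 1 or 3 (up to 0.0812).

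Just beyond the gene, the site 24.6 kb downstream of the Lmo2 start, from 103821904 to 103823579, had summits within 33 bp of each other in 11 lists. Asynchronous ranks were 15966, 14355 and 12848 in G1E and 16890, 19952 and 12814 in G1E-ER4. Mitotic ranks were 66071, 26022 and 33585 in G1E, and 73751 and 54179 in replicates 1 and 2 of G1E-ER4 with none in replicate 3. No mitotic list reached an asynchronous one. In G1E-ER4 it fell in mitosis by a log2 rank difference of 2.18 ± 0.42 (SE, limma adjusted p = 0.0129), which held in 18 of 19 alternatives and ended without asynchronous G1E-ER4 replicate 3 (2.00, adjusted p = 0.0643). In G1E it fell by 1.43 ± 0.42 (adjusted p = 0.0326), and that call ended without any 1 of the asynchronous G1E libraries, without mitotic G1E replicate 1, with ranks within each chromosome, with summit windows (adjusted p = 0.0994), and without both replicate 1 libraries (1.12, adjusted p = 0.135, the highest of all).

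One site rose in mitosis. The site 5 kb upstream of Lmo2, from 103791287 to 103794536, ranked at 40194, 23603 and 23169 in mitotic G1E-ER4 and at 84613 and 70553 in asynchronous replicates 1 and 2, with none in replicate 3. In G1E it was held by asynchronous replicates 2 and 3, at 71661 and 97234, and by mitotic replicate 2, at 50423. Its log2 rank difference in G1E-ER4 was -1.59 ± 0.41 (SE, limma adjusted p = 0.0411), with every mitotic G1E-ER4 list above all asynchronous ones. This call ended in 10 of 19 alternatives, with summit windows (-0.95, adjusted p = 0.365), with ranks within each chromosome and without any 1 of the asynchronous libraries of either line or mitotic G1E-ER4 replicate 2 or 3 (up to 0.151). Its summits were spread over 2051 bp.

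Few calls were made at the remaining Lmo2 sites. The site 69.5 kb upstream was in 10 lists at ranks 7725 to 55841, and no comparison passed in the fit without the replicate block. With the block its stage difference in G1E did (1.35, limma adjusted p = 0.0479). The site 66.3 kb upstream was in 5 lists, all of G1E, at 25192, 78412 and 39888 in asynchronous cells and 50284 and 67671 in mitotic replicates 1 and 2, and its line difference of 1.22 ± 0.40 in asynchronous cells did not pass (limma adjusted p = 0.0652). The site 21.5 kb downstream of the start was in the 3 asynchronous G1E lists only, at 81821, 61937 and 55589. It entered the test through that group alone and so had to differ, with a log2 rank difference of 0.61 ± 0.17 (SE) against both mitotic G1E and asynchronous G1E-ER4 that restates its absence there. The sites 12.7, 9.2 and 2.2 kb upstream and 7.6 and 17.6 kb downstream, present in 4 to 8 lists at ranks from 17182 to 98733, passed in no comparison.

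**Figure D4:**
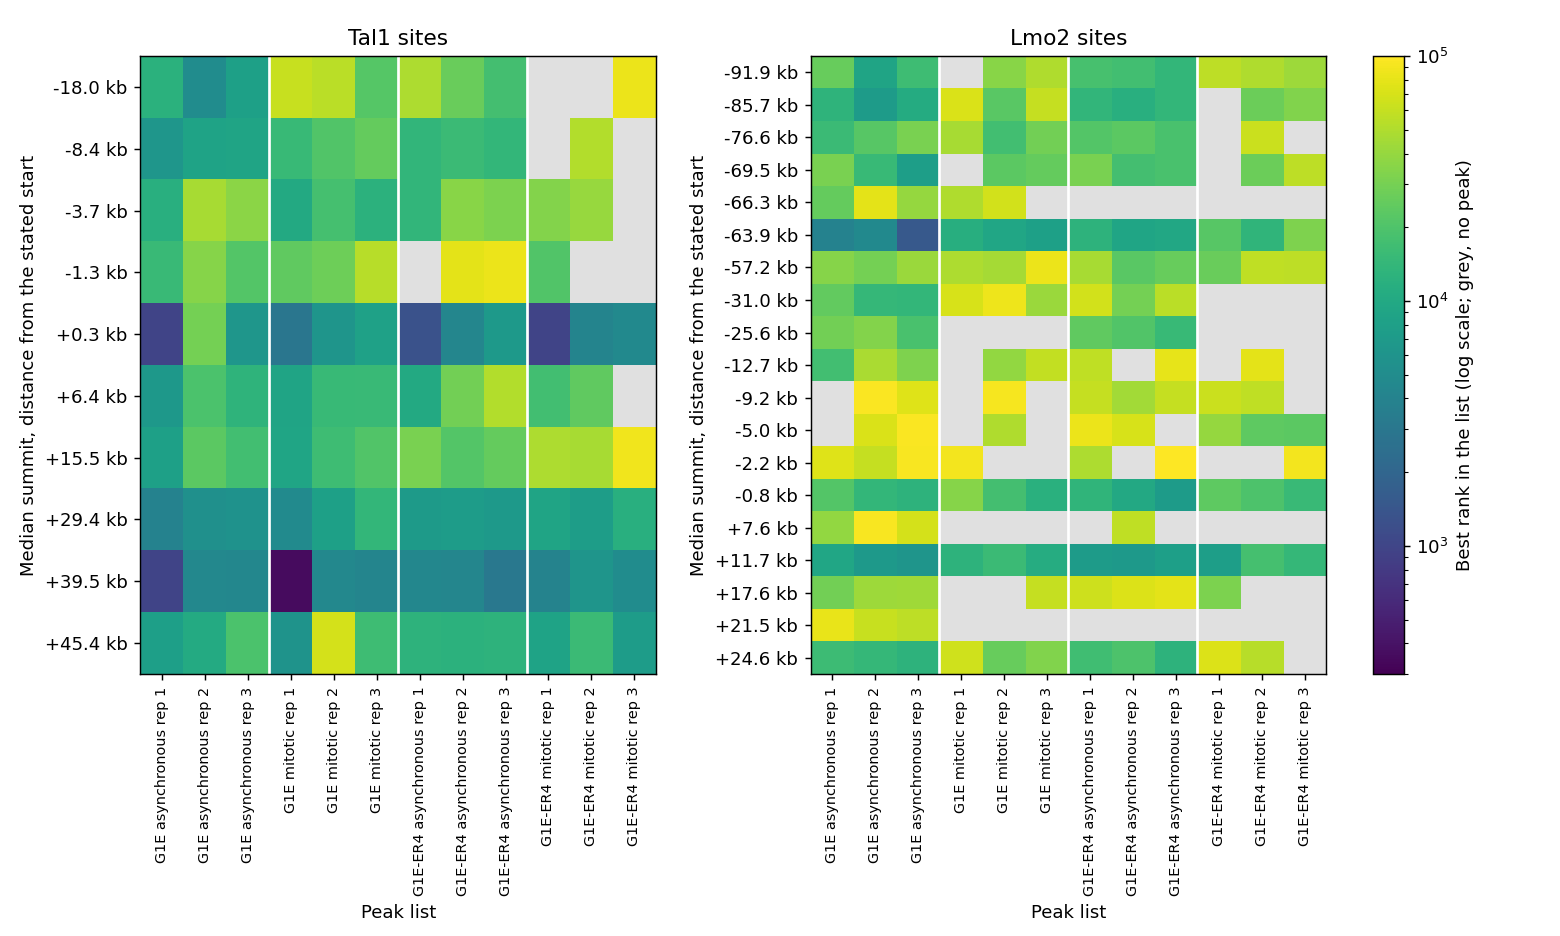
Best rank in each of the 12 replicate lists for the 10 Tal1 and 19 Lmo2 sites described one by one, in order of position, with colour on a log scale and grey where a list held no peak. Grey cells gather in the mitotic lists, and all 12 cells are filled for 5 Tal1 and 4 Lmo2 sites.

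The remaining 33 sites, 13 at Tal1 and 20 at Lmo2, were each present in 1 to 3 lists. Their ranks ran from 16361 to 96072 at Tal1 and from 23290 to 99727 at Lmo2, and their widths from 207 to 2605 bp and from 234 to 1290 bp. None lay within the 10000 strongest peaks of a list. Summits were placed more sharply at some described sites than at others: they fell within 150 bp of each other at 3 of 10 Tal1 sites, those at 18, 29.4 and 45.4 kb from the start, and at 6 of 19 Lmo2 sites. At the others the spread reached 6247 bp at Tal1 and 5286 bp at Lmo2, where several peaks were merged.

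Counted over the fitted sites, loss of rank in mitosis was the commoner direction at both loci, though some of these sites could not rise. Fitted were the 36 sites of at least 3 lists, 12 at Tal1 and 24 at Lmo2, among 103666 regions of the genome that met the same rule. In G1E, 9 of the 36 (25%), 2 at Tal1 and 7 at Lmo2, fell in mitosis, where 11.1% of all tested regions did, and 0 rose, where 5.06% did. In G1E-ER4, 4 fell (11.1%), 1 at Tal1 and 3 at Lmo2, against 3.98% of all regions, and 1 Lmo2 site rose, against 0.613%. Without both replicate 1 libraries of G1E (added once the data had been seen), the G1E stage calls in either direction numbered 4 of 28 sites (14.3%), where 10.1% of all regions passed, and the G1E-ER4 ones 7 of 28 (25%), where 7.65% did. With summit windows the G1E stage calls were 4 of 58 windows (6.9%) against 6.7% of all, and among regions of all 12 lists 1 of 9 (11.1%) against 14%, so in these settings the share at the loci was near or below that of all regions. The sites at -25.6 and 21.5 kb of Lmo2 are 2 of the 9 G1E calls and the former is 1 of the 4 in G1E-ER4, and neither was in any list of the lower group. Since a site enters the fit through the lists that hold it, these counts describe the fitted sites and not all 62. The median log2 rank difference by stage in G1E was 0.49 at Tal1 and 0.68 at Lmo2, beside -0.04 over all regions, and in G1E-ER4 0.37 and 0.34, beside 0.00. These medians include sites held by asynchronous lists alone, whose stage difference could not be negative. They were the site 11.2 kb downstream of the Tal1 start and, at Lmo2, those 93.7, 88.5, 25.6 and 14.7 kb upstream and 7.6, 19.6, 21.5 and 22.4 kb downstream. In G1E-ER4 the same limit held for the sites 23 kb downstream of the Tal1 start and 31 kb upstream of Lmo2, which no mitotic G1E-ER4 list held. The Lmo2 site 66.3 kb upstream was in no G1E-ER4 list, so it could not differ by stage in that line. No fitted site was held by mitotic lists alone, so the sign of the medians is fixed in part by the rule of entry.

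By line, 5 of the 36 sites (13.9%) lay further down in asynchronous G1E-ER4 than in asynchronous G1E, 2 at Tal1 and 3 at Lmo2, where 7.65% of all regions did. One of the 5, that 21.5 kb downstream of the Lmo2 start, was in no asynchronous G1E-ER4 list. None lay higher, where 4.07% of all regions did. Counted in either direction, 13.9% of the sites passed, against 11.7% of all regions. The share at the loci was below that of all regions in the 50000 highest peaks (12% against 15.5%) and with summit windows (3.45% against 5.44%). It was also below with ranks within each chromosome (5.56% against 11.5%) and without both replicate 1 libraries of G1E (10.7% against 11.7%). Leaving out asynchronous G1E-ER4 replicate 1, 2 or 3 put it below as well (0% against 8.53%, 2.94% against 9.16% and 2.94% against 9.7%). Without mitotic replicate 2 of G1E or of G1E-ER4 it was just below (11.1% against 11.3% for each). In the remaining settings, such as regions of all 12 lists (11.1% against 8.52%), it was above. Medians were 0.51 at Tal1, 0.26 at Lmo2 and -0.09 over all regions. In mitotic cells 1 site, that 8.4 kb upstream of Tal1, lay further down in G1E-ER4, against 0.577% of all regions, and 0 higher, against 0.462%. With the replicate number as a block, 3 sites passed there, the others being those 3.7 kb upstream of Tal1 (1.98, limma adjusted p = 0.0483) and 15.5 kb downstream of its start (2.00, adjusted p = 0.0456). Each count by line and by stage shares its lists with the others, so they are not independent of each other.

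No site was shown to respond to mitosis differently in the lines. The difference of the stage effect between lines passed at 0 of the 36 sites and at 0% of the 103666 regions by limma. At an unadjusted p under 0.05 it stood at 4 of the 36 sites (11.1%) and at 14048 regions (13.6%), so the sites had no higher share than the genome. The 4, named here after their values were seen, were the site 3.7 kb upstream of Tal1 (2.09 ± 0.83, SE) and the Lmo2 sites 76.6 kb upstream (1.65 ± 0.62), 5 kb upstream (-1.43 ± 0.58) and 21.5 kb downstream (-0.61 ± 0.23), each as the G1E-ER4 minus the G1E effect in log2 rank, and the last of them entered the fit through asynchronous G1E alone.

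Presence was also counted without regard to rank. All 10 Tal1 sites of all 3 asynchronous G1E lists were in all 3 mitotic G1E lists, and 8 of 17 such Lmo2 sites were, where 51.1% of all such regions were. In G1E-ER4 5 of 9 Tal1 sites and 5 of 13 Lmo2 sites were in all 3 mitotic lists, where the share of all such regions was 61.3%. Of those 9 Tal1 sites, mitotic G1E-ER4 replicates 1, 2 and 3 lacked 2, 1 and 3.

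**Figure D5:**
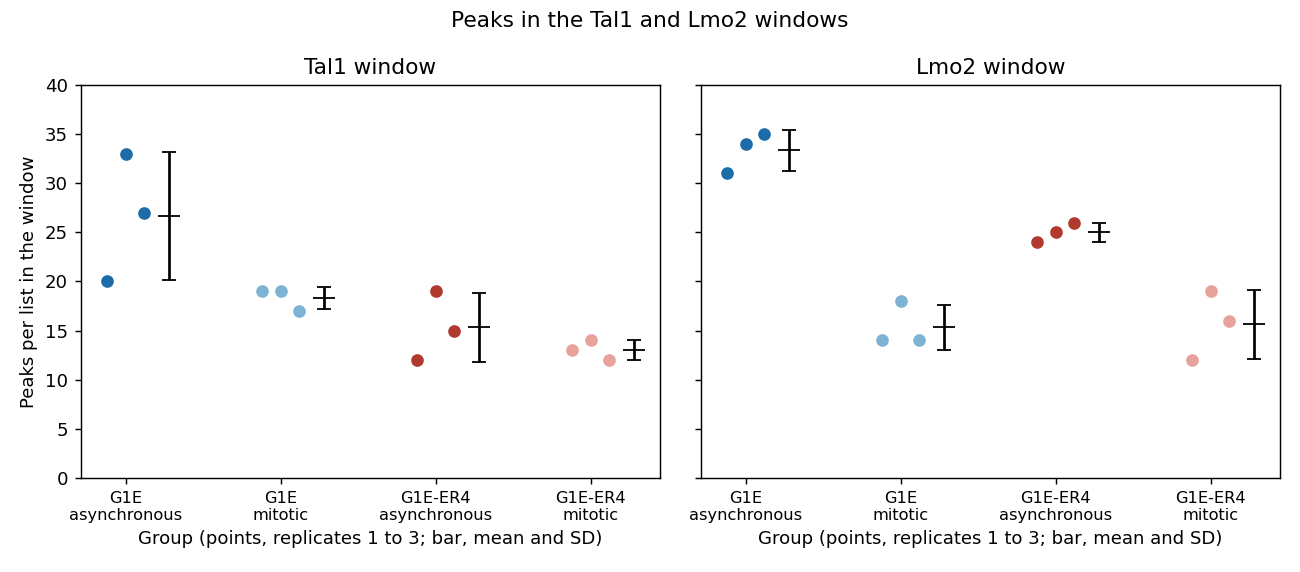
Number of peaks in the Tal1 and Lmo2 windows in each replicate list by group, as points for replicates 1 to 3 with a bar for the mean and SD. In the Lmo2 window all 6 asynchronous lists, at 24 to 35 peaks, lie above all 6 mitotic lists, at 12 to 19.

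The number of peaks in the window differed by stage at Lmo2 with labels exchanged within line. With the replicate block that difference did not pass after adjustment (exact permutation, adjusted p = 0.0625). The 64 arrangements of the block allow no less than 0.0313 before adjustment. No other windows of the genome are set beside these counts, so whether they are particular to Tal1 or Lmo2 was not tested. A difference by line at Tal1 passed with labels exchanged within stage, but likewise not with the replicate block, nor in covered length. At Lmo2, asynchronous G1E lists held 31, 34 and 35 peaks and mitotic ones 14, 18 and 14, while asynchronous G1E-ER4 held 24, 25 and 26 and mitotic G1E-ER4 12, 19 and 16. Group means were 33.3 ± 2.08, 15.3 ± 2.31, 25 ± 1 and 15.7 ± 3.51 (SD, n = 3 each). Mitotic lists had 13.7 peaks fewer, a difference of -13.7 (exact permutation test, two-sided, stage labels exchanged within line, p = 0.005, the smallest its 400 arrangements allow; 0.01 adjusted over 4 tests). By line the Lmo2 difference was -4 and did not pass (exact permutation p = 0.085, adjusted 0.085). Covered length at Lmo2 fell as well, by 13.2 kb (exact permutation p = 0.005, adjusted 0.02).

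At Tal1, asynchronous G1E lists held 20, 33 and 27 peaks, mitotic G1E 19, 19 and 17, asynchronous G1E-ER4 12, 19 and 15 and mitotic G1E-ER4 13, 14 and 12. Means were 26.7 ± 6.51, 18.3 ± 1.15, 15.3 ± 3.51 and 13 ± 1 (SD, n = 3 each). G1E-ER4 lists had fewer, by -8.33 peaks (exact permutation of line labels within stage, two-sided, p = 0.005, adjusted 0.01), and by -9.83 without both replicate 1 libraries of G1E (exact permutation, adjusted p = 0.0333). With labels exchanged only between lists of the same replicate number, the block that the data give for the lines, the difference was the same and the adjusted exact permutation p was 0.0625, and before adjustment the p was 0.0313, the smallest that 64 arrangements allow. Covered length in the window, a measure that does not rise when a wide peak is split, differed by -8.15 kb and did not pass (exact permutation p = 0.31, adjusted 0.62). By stage the Tal1 difference of -5.33 peaks did not pass after adjustment (exact permutation p = 0.045, adjusted 0.06). By the same test it passed without asynchronous G1E replicate 1 (-7, adjusted p = 0.0333) or 3 (-5.25, 0.0467). It also passed without asynchronous G1E-ER4 replicate 1 (-6.17, 0.01) or mitotic G1E-ER4 replicate 2 (-5.58, 0.045). It did not pass without any other single library, or without both replicate 1 libraries of G1E (-7.17, adjusted exact permutation p = 0.09). Nor did it pass in the 50000 highest peaks (-3.5, 0.0667), with the replicate block (-5.33, 0.125) or in covered length (-5.85 kb, 0.627).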

How the data were processed

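DNase-seq libraries were made from fixed cells digested with DNase I at several concentrations, per the labels' protocols. The submitters' processing notes name Bowtie and mm9. The peak caller was not given in the sources used here. Deposited were 16 lists, 12 of replicates and 4 of pooled groups, which give a signal per peak, as the authors' caller wrote it with a normalization that is not stated, and the summit. Signal was used only to rank peaks, and counting intervals cannot be had without counts.

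Regions of at least 3 of the 12 lists were fitted with limma 3.58.1 (trend, empirical Bayes) on log2 rank, absent regions at 100000, with Benjamini-Hochberg adjustment over all 103666 regions and a threshold of 0.05. Where lists lacked a region, its differences and their SE rest in part on that limit. Peaks per window were tested by exact permutation, adjusted over 4 tests. On simulated data for the G1E stage comparison over 16323 regions, 86 of 100 shifts of 2 and 11 of 100 shifts of 1 in log2 rank were recovered, with 4 false calls. The simulated regions were those of all 12 lists, with 1 common spread and no absent list. Recovery and false calls at sites with absent lists set at 100000 were therefore not tested. Numbers were taken to pair lists where every same-numbered pair had a correlation of deviations over 0.1, which held between lines (0.171 to 0.447) and not between stages (0.096 to 0.409). Sites in all 12 lists or in all 3 of a group were described singly. Members, lists and rules were chosen with earlier results of these data known. Python 3.11.15, numpy 2.4.6, pandas 2.3.3, scipy 1.17.1, matplotlib 3.10.9 and R 4.3.3 were used.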

Additional observations from a re-analysis of the deposited data

How the results depend on the processing

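Settings were changed one at a time, and where a setting redraws regions, a site was followed by the overlapping region of the most lists. The 20 called site differences kept their sign in every setting that could fit them, with 279 alternative values keeping the call and 89 losing it. Of 160 differences that were not called, 53 spanned 0 over the settings, among them the stage differences at the Tal1 start in G1E (-1.37 to 1.18) and G1E-ER4 (-1.04 to 0.38), 39.5 kb downstream of it in G1E (-1.24 to 0.69) and at the Lmo2 start in G1E (-0.08 to 0.84). The stage calls in G1E, 9 sites, became 1 of 9 tested among regions of all 12 lists (11.1% against 14% of all) and 4 of 58 with 150 bp on each side of the summit (6.9% against 6.7%). They were 4 of 28 without both replicate 1 libraries of G1E (14.3% against 10.1%). On leaving out single libraries they were 3 to 10 (9.38% to 28.1%, against 7.12% to 17.8% of all regions), with 3 to 5 without asynchronous G1E replicate 2 or 3 or mitotic G1E replicate 1. The stage calls in G1E-ER4, 5 sites, became 0 of 9 among regions of all 12 lists (against 0.852%) and 3 of 58 by summits (5.17% against 2.35%). With the replicate block they were 8 of 36 (22.2% against 5.48%). Without single libraries they were 2 to 7 (5.88% to 20%, against 1.14% to 7% of all regions), with 2 or 3 without asynchronous G1E-ER4 replicate 2 or 3 or mitotic G1E-ER4 replicate 3. The line calls in asynchronous cells, 5, became 1 of 9 in regions of all 12 lists (11.1% against 8.52%), 3 of 25 in the 50000 highest peaks (12% against 15.5%) and 2 of 58 by summits (3.45% against 5.44%). They became 3 of 26 with presence in 6 lists (11.5% against 9.6%), 2 of 36 with ranks within each chromosome (5.56% against 11.5%) and 3 of 28 (10.7% against 11.7%) without both replicate 1 libraries of G1E. Without single libraries they were 0 to 6 (0% to 17.1%, against 5.07% to 13.9% of all regions), with 0 to 3 without any 1 of the asynchronous ones. In mitotic cells 1 line call became 2 of 25 in the 50000 highest peaks (8% against 1.94%) and 0 of 58 by summits (against 0.597%). It became 2 of 26 with presence in 6 lists (7.69% against 2.68%) and 3 of 36 with the replicate block (8.33% against 1.19%). Without both replicate 1 libraries of G1E it became 2 of 28 (7.14% against 3.44%). Without single libraries it became 0 to 2 (0% to 7.14%, against 0.465% to 2.93% of all regions). It was 0 without mitotic replicate 2 or 3 of G1E or 1 or 3 of G1E-ER4, and 2 without asynchronous or mitotic G1E replicate 1. Ranks within each chromosome and leaving out both replicate 1 libraries were added once the data had been seen. Over all regions, the share called moved too: from 16.1% to between 6.7% and 20.2% for G1E by stage, from 4.6% to between 0.852% and 9.52% for G1E-ER4, from 11.7% to between 5.07% and 15.5% by line in asynchronous cells, and from 1.04% to between 0.465% and 3.44% in mitotic cells. The difference of the stage effect passed at 0 member sites in every setting, and at up to 1.63% of all regions. Sites in all 12 lists, 5 at Tal1 and 4 at Lmo2, became 3 and 3 in the 50000 highest peaks, 3 and 0 by summits, and 8 and 10 by presence in all 4 pooled lists. The shares of all regions in these settings are not given here.

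Peaks per list differed by stage at Tal1 by -7 to -3.75 without single libraries. By line at Lmo2 they differed by -4.83 to -3.08, passing only without mitotic G1E-ER4 replicate 2 (adjusted exact permutation p = 0.045). At Tal1 the line difference was -8.33 with the replicate block (exact permutation, adjusted p = 0.0625) and -8.15 kb in covered length (0.62). At Lmo2 the stage difference was -13.7 with the block (0.0625), and for both 64 arrangements allow no less than 0.0313 before adjustment. The other counts of calls stayed within 1.5 times under the block. By stage the lists share only a number, since a same-number correlation of 0.096 was under the limit of 0.1. Not every list deviated most like its own number, by stage (G1E asynchronous replicate 2 with mitotic replicate 3, at 0.302 against 0.14) or by line (with asynchronous G1E-ER4 replicate 3, at 0.301 against 0.171). Rank lists carry no depth, so a site below rank 100000 was not detectable and need not be closed.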
